A study of Mus musculus with 21 samples.

Results

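Nes low mesenchymal cells from the bone marrow of mice at the early stage of acute myeloid leukemia (AML) were compared between 2 leukemic cell lines, HL60 and ML1. The comparison uses 12 of the 21 RNA-seq libraries of the experiment, 6 for HL60 and 6 for ML1, chosen by the line and stage in each title. All hosts were NSG mice, an immunodeficient strain that lacks the adaptive immune system and tolerates human cells, and carried a green reporter of Nestin. They received AML cells without conditioning at 8 to 12 weeks of age. HL60 and ML1 are established human AML lines, engineered here to secrete sLP-mCherry, a red label that crosses lipid membranes and enters neighboring cells.

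Within each line, 3 libraries held ch+ cells, which had taken up the label, and 3 held ch- cells, which had not. For reference, 3 ctrl libraries came from mice of the same strain without leukemia, and 3 late libraries per line from mice with advanced disease. The treatment field describes the ML1 late libraries as unengrafted, against their titles and time point, and the titles were followed. Which ch+ and ch- libraries share a mouse is not recorded. According to the paper's results section, ch- cells came from the same marrow as ch+ cells. The 6 libraries of a line may thus stand for fewer animals, and p-values over all 12 libraries may then be too small. No date of sorting or sequencing is given, so line and batch cannot be told apart.

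The bone marrow niche is the set of non-blood cells that houses blood stem cells and also leukemic cells. Its Nestin-expressing mesenchymal cells secrete the chemokine CXCL12, give rise to bone-forming cells and lay down the extracellular matrix around them. This matrix holds fibrillar collagens together with proteins that bind or decorate the fibrils, among them periostin, tenascins, asporin and collagen XII.

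The deposited values are on a log2 scale, on which a difference of 1 is a doubling. The authors regularized them, which draws the values of weakly expressed genes together, so that differences at low values are shrunken and sums are approximate. Read depth per library cannot be recovered from them. Summed after conversion from log2, the normalized values came to 11.2 to 13.6 megacounts in HL60 early libraries (median 12.5) and to 12.3 to 14.7 in ML1 early libraries (median 13.2). Cxcl12 and Nes were read as markers of the labelled cell type. Cxcl12 lay between 14.97 and 16.14 in HL60 and between 15.48 and 16.34 in ML1 early libraries, and Nes between 7.03 and 7.65 and between 6.61 and 7.57. Osteoblast genes were also high, with a mean of 12.47 to 13.02 in HL60 and 12.50 to 13.16 in ML1 early libraries. Cxcl12 and Nes alone thus do not settle the cell type. Xist lay between 12.89 and 14.13 in all 21 libraries and the 4 Y-linked genes, which were too low to be tested, at most at 2.62, although the methods describe cohorts with as many male as female mice. The extraction field of the labels speaks of sorted CD31+ endothelial cells, against the source name, and Pecam1, which encodes CD31, lay between 4.87 and 6.21 in early libraries.

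In early libraries, the cell line was a weak source of variation. Across 12976 tested genes, it took 8.82% of the sum of squares of the 12 libraries, where a term without any effect would take 9.09% on average, and the cherry label took 20.1%. The first principal component (21.1% of the variance) separated all ch+ from all ch- libraries. None of the first 4 components separated HL60 from ML1. Components 2, 3 and 4 each set a single ML1 library apart, namely ch- library 543, ch+ library 541 and ch+ library 539. Within a group, Pearson's r between libraries over all tested genes was 0.944 to 0.954 for HL60 and 0.935 to 0.953 for ML1.

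With the cherry label as a term, 10 of the 12976 genes (0.0771%) were deregulated between the lines in limma (adjusted p under 0.1), of which 9 were higher and 1 was lower in HL60. This split depended on the fit, with 13 higher and 13 lower under a higher filter, 17 and 13 with sample weights, 7 and 8 without library 541, and 12 and 10 without library 543. In other fits, every deregulated gene was higher in HL60. Among them were quantile normalization (10 genes), rescaling to the library total (17), and the fits without library 539 (14) or 544 (16). In the same fit, 912 genes (7.03%) differed between ch+ and ch- cells. At an unadjusted p under 0.05, the line gave 831 genes, which is 6.40% of those tested. The median half-width of the 95% interval, which is not adjusted for the number of genes, was 0.57 on the log2 scale. To pass after adjustment, most genes needed a larger difference than that. The 6 HL60 libraries lay entirely above or entirely below the 6 ML1 libraries for 37 genes (0.285%), 22 of them above. The count of 10 depends on the settings: no gene passed without the filter on low values, 1 without the mean-variance trend, 3 without the cherry term and 30 with sample weights. Without ML1 libraries 539, 541 and 543 together, 17 genes passed, 9 of them higher in HL60, and 7 of these 17 were among the 10.

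**Figure D1:**
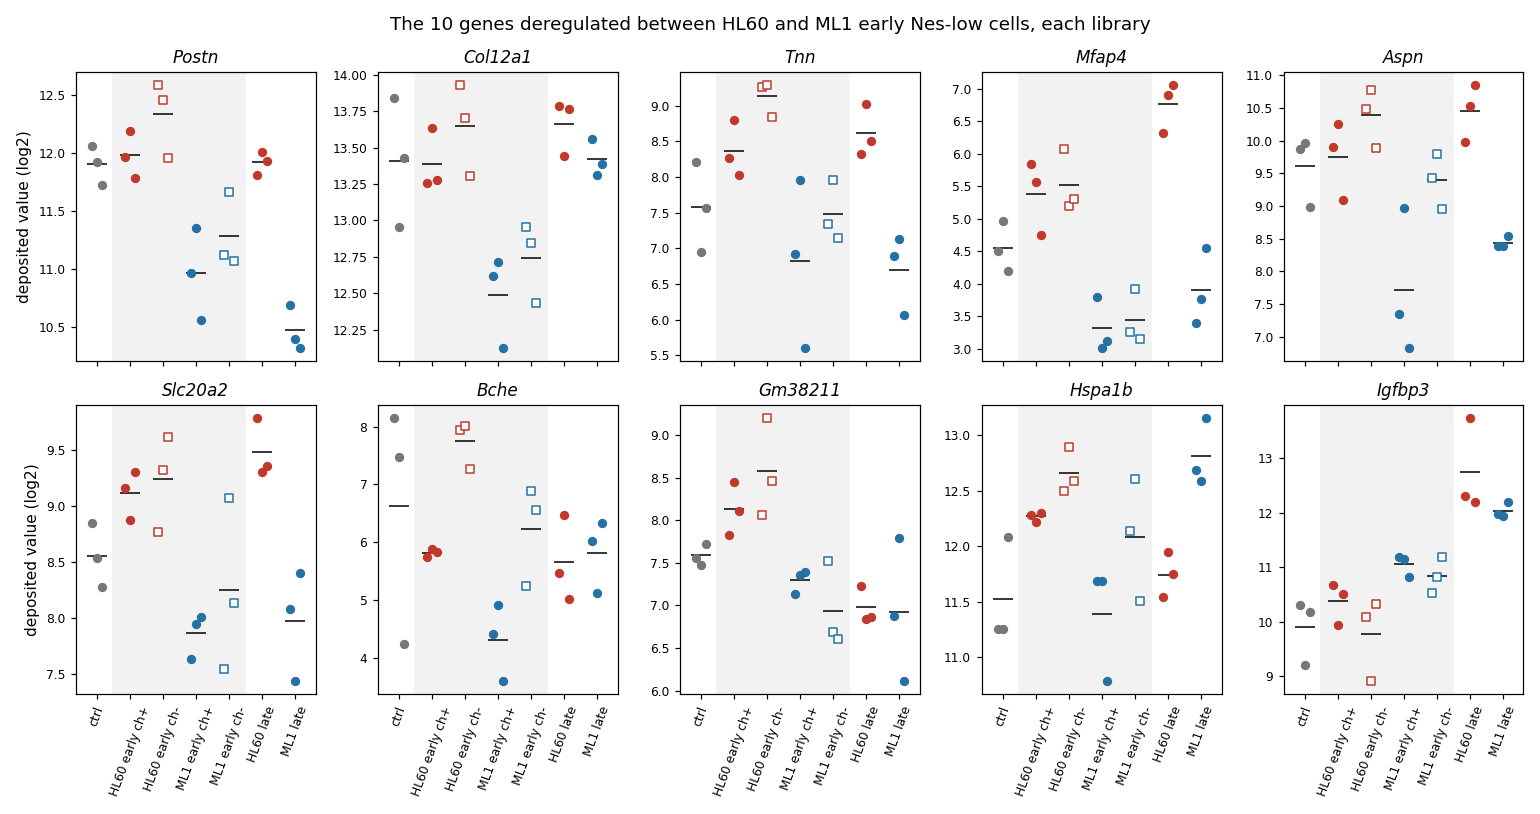
Deposited log2 value (vertical axis, scaled for each gene) of the 10 genes deregulated between HL60 and ML1 early libraries, by group; each point is a library, lines are group means, red is HL60, blue is ML1, grey is ctrl, open squares are ch- cells, and the shaded area holds the early groups. For Postn, Col12a1, Tnn, Mfap4 and Gm38211, all 6 HL60 early libraries sit above all 6 ML1 early libraries.

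Of the 9 genes that were higher in HL60, 5 encode secreted matrix proteins, Postn, Col12a1, Tnn, Mfap4 and Aspn, and the first 4 of them did not overlap between the lines. Of all tested genes, 0.0771% were deregulated and 0.285% did not overlap between the lines. The grouping of these 5 was made after the genes were known. The share of matrix genes among all tested genes was not determined, so an excess of them was not tested. Collagens as a list had 1 of 16 genes deregulated and 4 at an unadjusted p under 0.05 in limma. Matrix proteases and inhibitors had 0 of 13 deregulated and 3 at such a p, which 6.40% of all tested genes reached. The differences of these 5 called genes were 0.90 to 2.08 on the log2 scale. None of the 5 passed the test for a line difference that depends on the label (smallest adjusted p = 0.973, limma). The median half-width of the unadjusted 95% interval in this test was 1.13 over all tested genes. To pass after adjustment, most genes needed a larger dependence than that.

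Postn (ENSMUSG00000027750, chromosome 3 of GRCm38, 54361109 to 54391037) encodes periostin, a matrix protein of periosteum and other collagen-rich tissue. Its value was 11.78 to 12.58 in HL60 early libraries (median 12.07), 10.56 to 11.66 in ML1 early libraries (median 11.09), and 11.72, 11.92 and 12.06 in ctrl. The ML1 libraries thus lay below every ctrl library, while the HL60 libraries overlapped with ctrl. The difference between the lines was 1.03 (95% interval 0.76 to 1.30, adjusted p = 0.000137, limma). It was 1.02 in ch+ and 1.05 in ch- cells.

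Col12a1 (ENSMUSG00000032332, chromosome 9, 79598991 to 79718831) encodes the chain of collagen XII, which lies on the surface of collagen fibrils. Its value was 13.26 to 13.93 in HL60 (median 13.47) and 12.13 to 12.96 in ML1 (median 12.67), with 12.95, 13.43 and 13.84 in ctrl. HL60 lay within the ctrl range or just above it, and ML1 lay below ctrl except for library 543, which was level with the lowest ctrl library. The difference was 0.90 (95% interval 0.67 to 1.14, adjusted p = 0.000137, limma), with 0.90 in each label.

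Tnn (ENSMUSG00000026725, chromosome 1, 160085029 to 160153580) encodes tenascin-N, a matrix glycoprotein of bone and periosteum. Its value was 8.03 to 9.29 in HL60 (median 8.82), 5.61 to 7.96 in ML1 (median 7.24) and 6.95, 7.56 and 8.21 in ctrl. Of the ctrl libraries, 2 lay within the ML1 range and 1 within the HL60 range. The difference was 1.59 (95% interval 1.04 to 2.15, adjusted p = 0.00874, limma), with 1.54 in ch+ and 1.65 in ch- cells.

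Mfap4 (ENSMUSG00000042436, chromosome 11, 61485431 to 61488900) encodes a glycoprotein of elastic microfibrils and overlaps at its end with Mapk7 on the opposite strand. It had a low value in every group, 4.75 to 6.07 in HL60 (median 5.44), 3.02 to 3.92 in ML1 (median 3.20) and 4.20, 4.51 and 4.96 in ctrl. All ML1 libraries were below ctrl, and the HL60 libraries reached above it. This was the largest of the 10 differences, at 2.08 (95% interval 1.43 to 2.72, adjusted p = 0.00205, limma), with 2.07 in ch+ and 2.08 in ch- cells.

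Aspn (ENSMUSG00000021388, chromosome 13, 49544443 to 49567565) encodes asporin, a small proteoglycan that binds collagen, and lies within Cenpp, which is on the opposite strand. The methods call the reads strand-specific, but the kits they name may not mark strand. A part of the partner's reads was not tested in Mfap4, in Aspn or in Col12a1, which overlaps 4930562D21Rik on the opposite strand. The value of Aspn was 9.09 to 10.78 in HL60 (median 10.08) and 6.84 to 9.80 in ML1 (median 8.96), so the lines overlapped. It was 8.99, 9.87 and 9.96 in ctrl. The lowest ML1 values came from ch+ libraries 541 (6.84) and 538 (7.35). The difference was 1.51 (95% interval 0.95 to 2.07, adjusted p = 0.0192, limma), and it was 2.03 in ch+ and 1.00 in ch- cells. The difference between these 2 values, 1.03, did not pass the test (adjusted p = 0.973, limma).

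The calls of Postn, Col12a1, Tnn, Mfap4 and Aspn did not rest on a single library, since each held in all 12 fits that left out 1 library. They also held without libraries 539, 541 and 543 together, where the differences were 0.99 for Postn, 0.92 for Col12a1, 1.53 for Tnn, 1.83 for Mfap4 (adjusted p = 0.0973, limma) and 1.54 for Aspn. None of them passed without the filter on low values, and only Mfap4 did without the mean-variance trend. Without the cherry term, Aspn (adjusted p = 0.551, limma) and Tnn (adjusted p = 0.197) did not pass, nor did Aspn with robust variance estimation (adjusted p = 0.441).

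The other 4 genes with higher values in HL60 have varied roles. Slc20a2 (ENSMUSG00000037656, chromosome 8), which encodes a sodium-coupled phosphate transporter, was 8.76 to 9.62 in HL60 (median 9.23), 7.54 to 9.07 in ML1 (median 7.97) and 8.27 to 8.85 in ctrl. Of the ML1 libraries, ch- library 544 alone reached into the HL60 range. Its difference was 1.12 (95% interval 0.70 to 1.54, adjusted p = 0.0210, limma), and 0.96 without libraries 539, 541 and 543, where it no longer passed (adjusted p = 0.211). The gene overlaps Smim19 on the opposite strand and Gm17491 on the same strand, and a part of their reads in its value was not tested.

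Bche (ENSMUSG00000027792, chromosome 3) encodes butyrylcholinesterase, which splits choline esters. It had 5.74 to 8.02 in HL60 (median 6.58) and 3.61 to 6.88 in ML1 (median 5.08), but also 4.24 to 8.15 in ctrl. The lines overlapped because the gene differed between the labels as well, and within each label every HL60 library was above every ML1 library. Its difference of 1.51 (95% interval 0.85 to 2.17, adjusted p = 0.0924, limma) passed in 3 of the 12 fits without a library.

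Gm38211 (ENSMUSG00000104476, chromosome 1, 45485836 to 45493052) is an unconfirmed transcript that lies within Col5a2 on the same strand, so that its reads cannot be assigned with certainty. It was 7.82 to 9.20 in HL60, 6.61 to 7.52 in ML1 and 7.48 to 7.73 in ctrl, with a difference of 1.23 (adjusted p = 0.0271, limma). It passed in 10 of the 12 fits without a library, not without library 528 (adjusted p = 0.131) or 546 (adjusted p = 0.136), nor without the cherry term (adjusted p = 0.138). Col5a2 itself differed by −0.07 (adjusted p = 0.904). Hspa1b (ENSMUSG00000090877, chromosome 17) encodes an inducible chaperone of the HSP70 family and has a near-identical copy, Hspa1a, which makes the split of their reads uncertain. It was 12.22 to 12.89 in HL60 (median 12.40), 10.79 to 12.60 in ML1 (median 11.69) and 11.25 to 12.09 in ctrl. Its difference was 0.73 (95% interval 0.42 to 1.04, adjusted p = 0.0719, limma), which passed in 6 of the 12 fits without a library.

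The gene with lower values in HL60 was Igfbp3 (ENSMUSG00000020427, chromosome 11, 7206086 to 7213923), which encodes a secreted protein that binds insulin-like growth factors. Its value was 8.92 to 10.68 in HL60 (median 10.21), 10.52 to 11.19 in ML1 (median 10.99) and 9.20 to 10.31 in ctrl. All ML1 libraries were above ctrl, and the top of the HL60 range overlapped with the bottom of the ML1 range. The difference was −0.87 (95% interval −1.24 to −0.50, adjusted p = 0.0719, limma) and passed in 6 of the 12 fits without a library. Of the 10 genes, Bche and Gm38211 are named to complete the set, after their values were seen.

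The lines were also compared within each label, 3 libraries against 3, with the spread estimated from all 12 libraries. In ch+ cells, which had been near AML cells, 3 genes were deregulated (0.0231%), Aspn, Postn and Col12a1 (adjusted p = 0.0726 for each, limma). In ch- cells 2 genes were deregulated (0.0154%), Postn and Col12a1 (adjusted p = 0.0806 for each). All were higher in HL60, and a median half-width of 0.80 for the 95% interval shows the lower precision. The 6 libraries of 1 label were also fitted alone, so that no mouse could enter with both labels. There ch+ cells gave 2 genes, without Aspn (adjusted p = 0.126, limma), and ch- cells gave 4, with Tnn among them. These small counts rest on single libraries. The count in ch+ cells fell to 0 without library 523, 524, 538 or 541 and rose to 6 without library 539, and the count in ch- cells fell to 0 without library 527, 528 or 546 and rose to 4 without library 529.

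The interaction asked whether the difference between the lines depends on the label, and it called 1 gene (0.00771%). Gm26582 (ENSMUSG00000097479, chromosome 5, 92043064 to 92055960) is a long non-coding RNA that overlaps Cdkl2 and G3bp2, which lie on the opposite strand, so that the same doubt about strand applies, and was named after its values were seen. Its values were 4.80, 5.00 and 5.71 in HL60 ch+, 3.35, 3.48 and 4.27 in HL60 ch-, 3.32, 3.41 and 3.49 in ML1 ch+, and 5.37, 5.73 and 5.88 in ML1 ch- libraries. It was thus higher in ch+ than in ch- cells with HL60 and the reverse with ML1, without overlap, and ctrl had 4.71 to 6.28. The interaction was 3.72 (adjusted p = 0.0315, limma), and its adjusted p rose to between 0.102 and 0.197 in 8 of the 12 fits without a library (library 525, 528, 529, 538, 539, 541, 544 or 546).

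Gene lists for cell types, matrix, signaling and stress were read for the same difference. Of 42 lists, 40 had tested genes, and 4 had a deregulated member, each 1 gene. Collagens had Col12a1 among 16 tested genes (median difference −0.08), targets of TGF-beta and YAP had Postn among 12 (0.03), the insulin-like growth factor pathway had Igfbp3 among 13 (−0.13), and heat shock genes had Hspa1b among 14 (0.26). The median of all tested genes was 0.00. Among the collagens, Col1a1, the main collagen of bone, differed by −0.13 and Col1a2 by −0.09, while Col3a1 differed by 0.50 without passing (adjusted p = 0.193, limma), except in the fits without library 529 or 539.

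Heat shock genes had higher values with HL60 more often than not. Of the 14 genes, 12 had a positive difference, 7 had an unadjusted p under 0.05, and 1 passed after adjustment. Over all tested genes, 6.40% had such an unadjusted p and 0.0771% passed. Their mean was 10.14 to 10.36 in HL60 early libraries (median 10.25), 9.66 to 10.16 in ML1 (median 9.98) and 9.58 to 9.90 in ctrl. The lines overlapped slightly, and HL60 lay above every ctrl library. Hspb1, a small chaperone, differed by 0.85 (adjusted p = 0.103, limma) and passed in 7 of 31 alternatives, among them the fits without library 539 or 544. Hsph1, a partner of HSP70, differed by 0.64 (adjusted p = 0.348). Hspa8, the most abundant member, differed by 0.27 (adjusted p = 0.581).

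No gene among the factors by which these cells maintain blood stem cells passed in the fit of all 12 libraries. All 17 genes of CXCL12-abundant reticular (CAR) cells and niche factors were tested in limma and none passed. An unadjusted p under 0.05 was reached by 5 of them, and by 6.40% of all tested genes. All 17 had a lower value in HL60, with a median of −0.24. Under the 3 other scalings the median was −0.24 to −0.16, with 1 library left out it was −0.35 to −0.15, and without libraries 539, 541 and 543 it was −0.36. It was −0.08 in ch+ and −0.35 in ch- cells. Lepr, the leptin receptor that marks these cells, differed by −0.43 (adjusted p = 0.103, limma) and passed under a higher filter, with sample weights, with robust variance estimation, with a block on assumed pairs and without library 527, 529, 541 or 543. Cxcl12 differed by −0.27 (adjusted p = 0.685) and Kitl, which encodes stem cell factor, by −0.26 (adjusted p = 0.820). The list mean was 10.73 to 11.64 in HL60 and 11.23 to 11.87 in ML1, with 10.66 to 11.16 in ctrl, so that the lines overlapped.

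No gene of the bone and cartilage lists was called. None of the 15 osteoblast genes passed in limma, with a median of −0.09 and 2 genes at an unadjusted p under 0.05. Bglap, which encodes osteocalcin, was 14.64 to 15.13 in HL60 and 14.72 to 15.33 in ML1, with 15.25 to 15.36 in ctrl, and its difference was −0.16 (95% interval −0.32 to 0.01). None of the 17 chondrocyte genes passed, with a median of 0.41 and 1 gene at an unadjusted p under 0.05. Their mean was 7.13 to 9.35 in HL60 and 7.31 to 8.43 in ML1 ch+ libraries, and 9.67 to 11.14 and 10.04 to 10.44 in ch- libraries, so that the lines overlapped within each label, and leaving out single libraries gave medians of 0.07 to 0.66.

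Markers of blood cells were not deregulated either. According to the methods, blood cells were depleted and the remaining cells stained for CD45 and Ter119 before sorting. Of the 13 tested neutrophil genes, none passed in limma and 1 had an unadjusted p under 0.05, and the median was −0.40 (−0.60 to −0.27 with 1 library left out, −0.74 without libraries 539, 541 and 543). Summed as normalized counts over all 15 listed genes, they came to 1123 to 2643 in HL60 (median 1647), 1194 to 3212 in ML1 (median 2531) and 130 to 556 in ctrl. Their most abundant gene, S100a9, differed by −0.40 (adjusted p = 0.820). Of 10 tested red cell genes none passed or had an unadjusted p under 0.05, with a median of −0.21 (−0.34 to −0.07 with 1 library left out, −0.53 without libraries 539, 541 and 543), and their sums were 4487 to 13080 in HL60, 6007 to 11944 in ML1 and 386 to 749 in ctrl. Both lines therefore lay above ctrl and overlapped with each other. Ptprc, which encodes CD45, was 2.67 to 5.58 in HL60 and 4.02 to 5.92 in ML1, with a difference of −0.84 (adjusted p = 0.796, limma), made up of 0.17 in ch+ and −1.84 in ch- cells (adjusted p = 0.562 in ch- cells). Pecam1 differed by −0.08 (adjusted p = 0.988), with 0.46 in ch+ and −0.61 in ch- cells, and the neutrophil median was −0.10 in ch+ and −0.62 in ch- cells. Fewer cells of a type and less RNA per cell cannot be told apart in these libraries, and the part of blood cell RNA in the line differences was not tested.

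The remaining lists had medians between −0.51 (megakaryocytes, 2 tested genes) and 0.32 (cytokines and chemokines, 15 tested genes) and no deregulated member. The median of cytokines and chemokines was 0.01 without libraries 539, 541 and 543 and 0.17 to 0.42 with 1 library left out, and it was 0.33 in ch+ and −0.06 in ch- cells. Endothelial genes had a median of 0.08 over 12 genes (−0.02 to 0.17 with 1 library left out), with 0.40 in ch+ and −0.34 in ch- cells. In ch+ cells the endothelial mean was 5.80 to 5.89 in HL60 and 5.25 to 5.46 in ML1, without overlap. In ch- cells it was 4.94 to 5.76 and 5.47 to 5.71, with overlap. Other list means did not overlap in ch+ cells either. Among them were cytokines and chemokines (6.54 to 6.75 in HL60, 6.12 to 6.19 in ML1) and heat shock genes (10.14 to 10.28 and 9.66 to 10.06). The share of lists without overlap among so few libraries was not determined. Interferon-stimulated genes had a median of 0.10 over 27 genes, with none at an unadjusted p under 0.05 in limma. Proliferation genes had 0.09 over 17 genes and hypoxia and glycolysis 0.10 over 19, again with none. Wnt pathway genes had 0.10 over 19 genes, with 4 at an unadjusted p under 0.05, and BMP pathway genes −0.03 over 19, with 3. Such a p was reached by 6.40% of all tested genes. Nuclear respiratory chain genes (71 genes) and cytosolic ribosomal proteins (83 genes) had medians of −0.05 and −0.04.

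**Figure D2:**
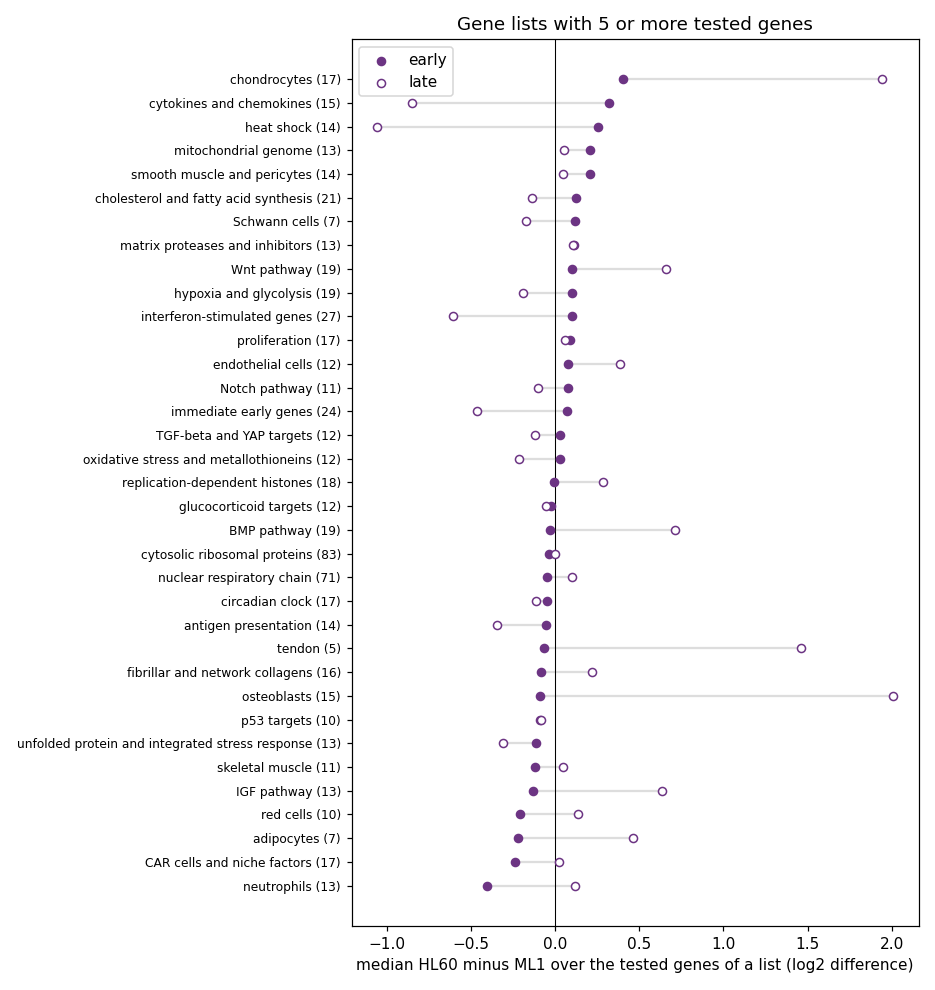
Median HL60 minus ML1 difference (log2, horizontal axis) over the tested genes of each list with 5 or more tested genes, whose number stands in brackets; filled points are the early and open points the late stage. Early medians lie between −0.40 for neutrophils and 0.41 for chondrocytes, and late medians between −1.06 for heat shock and 2.01 for osteoblasts.

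At the late stage, the same lines were compared in other libraries, 3 of HL60 against 3 of ML1. There 531 genes were deregulated (4.09%) in limma, 410 of them higher in HL60. Of the 10 early genes, 5 were also deregulated in late in the same direction, Mfap4 (2.85), Aspn (2.02), Tnn (1.92), Slc20a2 (1.51) and Postn (1.45), all higher in HL60. With Hspa1b, which went the other way, 60% of the early genes and 1.13% of the late genes were called at both stages. Postn was 11.81, 11.93 and 12.01 in HL60 late and 10.32, 10.40 and 10.69 in ML1 late libraries. Mfap4 was 6.31, 6.91 and 7.05 in HL60 late and 3.40, 3.77 and 4.55 in ML1 late libraries. For both genes, the lines did not overlap at either stage.

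The line difference was tested against itself between the stages. None of these 5 genes differed between early and late in limma, with early minus late values of −0.78 for Mfap4 (95% interval −1.83 to 0.28), −0.51 for Aspn (−1.43 to 0.42), −0.33 for Tnn (−1.34 to 0.68), −0.39 for Slc20a2 (−1.12 to 0.34) and −0.42 for Postn (−0.88 to 0.05). These intervals are wide, so that a moderate change between the stages was not detectable. Col12a1 was not deregulated in late (0.25, adjusted p = 0.787, limma), and its early minus late value of 0.66 did not pass (adjusted p = 0.180). It passed after rescaling to the library total (0.98, adjusted p = 0.0199) and without HL60 early ch- library 529 (0.74, adjusted p = 0.0918).

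Across all tested genes, 398 differed between early and late in their line difference (3.07%), 115 of them with a more positive value in early, and the late difference was the larger in size for 383 of them. The direction depends on the scaling, since after rescaling to the library total 670 genes differed, 497 of them with a more positive value in early. Of the 531 late genes, 268 had the same sign in early, or 50.5%. Over these genes, the early difference divided by the late one had a median of 0.00276.

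Osteoblast genes had the highest late median of all lists and the most members that passed the early minus late test. In late, 13 of the 15 were deregulated, all higher in HL60, with a median of 2.01 against −0.09 in early, and for 12 of them the early minus late test passed. Over all tested genes, 4.09% were deregulated in late and 3.07% passed the early minus late test. Bglap was 12.77, 12.94 and 13.24 in HL60 late and 9.32, 9.63 and 10.04 in ML1 late libraries, and its early minus late value was −3.47 (adjusted p = 7.49e-14, limma). Bglap2, a second osteocalcin gene and a close copy of Bglap, had −3.25 (adjusted p = 3.69e-13). Cpz, a carboxypeptidase that binds Wnt proteins, had 9.43 to 10.14 in HL60 and 9.41 to 10.47 in ML1 early libraries, against 8.57 to 9.07 and 5.18 to 6.48 in late, and its early minus late value was −3.17 (adjusted p = 2.33e-08). All late libraries of either line were below ctrl for these 3 genes, and ML1 more so. Other lists moved with the osteoblast genes. Chondrocyte genes had a late median of 1.94, with 9 of 17 deregulated, all higher in HL60, and 5 passed the early minus late test. Tendon genes had a late median of 1.46, with 3 of 5 higher and 1 lower in HL60.

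Most heat shock genes were deregulated in late and 1 in early. In late, 11 of the 14 were lower and 1 was higher in HL60, with a median of −1.06 against 0.26 in early, and the early minus late test passed for 11. The shares over all tested genes were 4.09% in late and 3.07% for early minus late. Hspa1b was 11.54 to 11.95 in HL60 late and 12.59 to 13.15 in ML1 late libraries, a difference of −1.07 (adjusted p = 0.00508, limma) against 0.73 in early. Hsph1 was 8.29 to 9.18 in HL60 late and 10.66 to 11.78 in ML1 late libraries, and its early minus late value was 3.08 (adjusted p = 1.70e-05). Hspb1 had an early minus late value of 2.52 (adjusted p = 1.50e-05). The list of immediate early genes moved the same way. Of its 24 genes, 10 were lower and 1 was higher in HL60 in late, with a median of −0.46 against 0.07 in early. The early minus late test passed for 9 of them. Ccl2, a chemokine that attracts monocytes, was 5.88 to 8.02 in HL60 and 6.21 to 7.81 in ML1 early libraries, against 7.55 to 7.69 and 9.64 to 10.75 in late, with 2.91 for early minus late (adjusted p = 0.000254).

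Igfbp3 also differed between the stages, with −0.87 in early, 0.71 in late, where it was not deregulated (adjusted p = 0.391), and −1.58 for early minus late (adjusted p = 0.0247, limma). Without HL60 late library 398, the last value was −1.09 and did not pass (adjusted p = 0.183). The late libraries had lower summed values than the early ones, 8.41 to 9.02 for HL60 and 7.26 to 7.46 megacounts for ML1. Rescaling to these sums moved the median late difference of all tested genes from 0.00 to −0.24 and the split of late genes from 410 higher and 121 lower to 261 higher and 444 lower. The osteoblast median was then 1.76 and the heat shock median −1.30, both in the direction they had before.

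**Figure D3:**
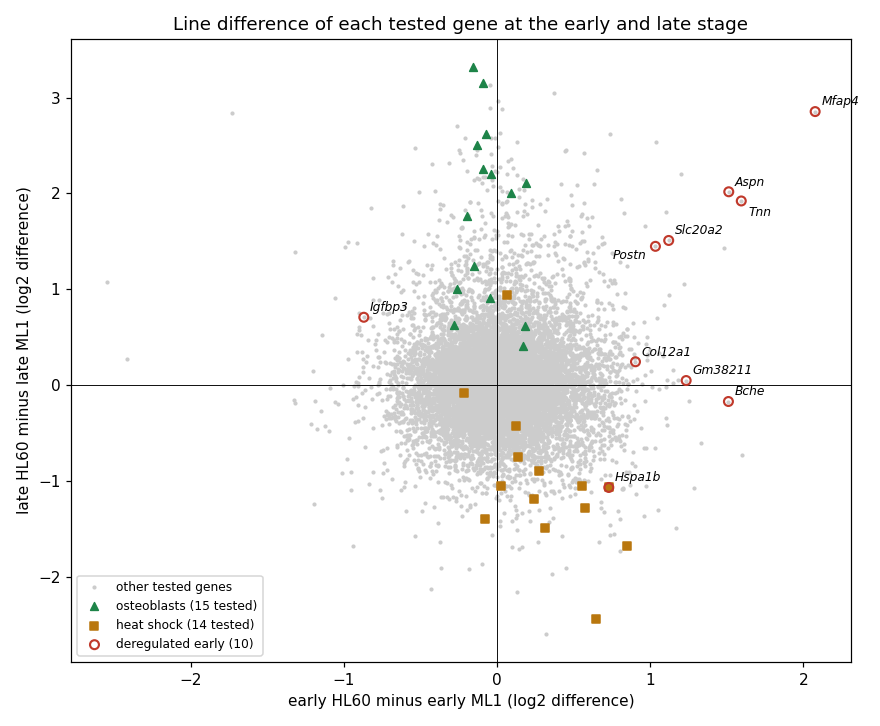
Early (horizontal) and late (vertical) HL60 minus ML1 difference, both log2, of each of the 12976 tested genes; red circles mark the 10 genes deregulated early, green triangles the 15 osteoblast genes and brown squares the 14 heat shock genes. Mfap4, Aspn, Tnn, Slc20a2 and Postn are high on both axes, osteoblast genes spread along the vertical axis alone, and most heat shock genes lie at the lower right.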

How the data were processed

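Paired-end reads, described as strand-specific, were aligned to mm10 and counted per gene by the authors, who per their processing notes used STAR 2.5.1b, RSEM 1.2.29 and DESeq2 1.10.1. The deposited values are regularized log2 values after the authors' normalization by the median of ratios; the methods name a log10 transformation, but the highest value, 22.44, is read as log2. Regularization shrinks the spread of weakly expressed genes. The methods state a typical yield, but no depth per library.

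Of 26852 genes, 26686 matched a symbol, and the 12976 with a mean of at least 3.32 (10 normalized counts) over 21 libraries were tested two-sided in limma 3.58.1 under R 4.3.3, allowing the variance to follow the mean, with Benjamini-Hochberg adjustment and a threshold of 0.1. The early comparison took line and cherry label as terms. The labels alone and their interaction were read from the same 12 libraries as 4 groups, and the late comparison and early minus late from all 21 as 7 groups. No libraries were identical. The methods were tested on simulated data.

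Named genes are those with the largest early differences that passed and whose lines did not overlap, the most abundant gene and the genes that passed in each list, Nes, Pecam1, Ptprc and sex-linked genes, up to 3 genes in each direction for the interaction and for early minus late, and up to 5 in each direction that passed in both stages; predicted and clone-named genes were left out by this rule. Bche, Gm38211, Gm26582, Col5a2, Col1a2, Col3a1, Lepr, Kitl, mt-Cytb, mt-Nd4, Tagln and Timp3 were named after their values were seen. The comparison, its members and the gene lists were chosen with earlier results of these data known. No label pairs ch+ and ch- libraries by mouse. Other filters, scalings, variance settings, thresholds and sets of libraries were tried as alternatives. P-values weigh a difference of means against the spread between libraries, and libraries of a line may share mice.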

Additional observations from a re-analysis of the deposited data

Results flagged for a closer look

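In 124 groups of 6 early libraries of a line (21 named genes, 40 gene lists and the summed values), 3 held a library far from the others; chance alone flags about 1 in 20 groups. The mean of the tendon genes was 9.61 in HL60 ch- library 529, against 10.07 to 10.27 in the other 5 HL60 libraries. Genes of oxidative stress and metallothioneins averaged 7.77 in HL60 ch+ library 524, against 7.26 to 7.39 in the others. For nuclear respiratory chain genes, the mean was 7.001 in HL60 ch+ library 525, against 7.11 to 7.16 in the others.

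The HL60 minus ML1 difference differed between early and late in limma (adjusted p under 0.1) for the genes given here, and also for other named genes. Bglap, Bglap2, Cpz, Hsph1, Ccl2 and Hspb1 were named for having the largest such values. The early minus late value was −3.47 for Bglap, −3.25 for Bglap2, −3.17 for Cpz and −1.58 for Igfbp3. It was 3.08 for Hsph1, 2.91 for Ccl2, 2.52 for Hspb1, 1.79 for Hspa1b and 0.79 for Xist (adjusted p = 0.00865, limma), where Xist was 13.61 to 13.95 in all early libraries, 12.89 to 13.36 in HL60 late and 13.51 to 14.13 in ML1 late libraries. For Gm26582, the difference between the lines depended on the cherry label, by 3.72.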

How the results depend on the processing

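Against 10 genes, the early line difference gave 0 without the filter on low values, 26 with a higher filter (a mean of 5), 17 after rescaling to the library total (all higher in HL60), 3 without the cherry term, 1 without the mean-variance trend, 30 with sample weights, 22 with robust variance estimation, and 2 and 4 in ch+ and ch- libraries fitted alone. It gave 17 without libraries 539, 541 and 543 together, an alternative chosen after seeing the data. Leaving out 1 library gave 6 to 22 genes, the extremes being 6 without library 528 or 546 and 22 without 529 or 543, with 16 without 544. Other fits gave 7 to 14 genes. The causes were not tested. All 10 genes held their sign under every alternative in which they were tested (Mfap4 lies below the higher filter). With 1 library left out, the range was 0 to 6 genes in ch+ cells, 0 to 4 in ch- cells (4 in these 6 libraries alone), 0 to 1 for the interaction (without 525 another gene than Gm26582), 383 to 453 for the late difference and 280 to 406 for early minus late. The late libraries alone gave 990 genes against 531. Rescaling gave 670 genes for early minus late, 497 of them more positive in early, against 398 with 115. A count-based test was not run, since whole reads could not be recovered, and no label pairs ch+ and ch- libraries by mouse. With pairs assumed from the order of the numbers (chosen after seeing the data), paired deviations from the group means correlated by −0.02 to 0.05, and 3 of 6 ch+ libraries correlated best with their assumed partner. A replicate block on these pairs gave 21 genes, and the means of pairs 8, 7 of them among the 10 (without Bche, Hspa1b and Igfbp3). Only 3 libraries per group limit the precision.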

Other observations

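No transcript of the mitochondrial genome passed in the fit of all 12 libraries. All 13 were tested in limma and none passed. An unadjusted p under 0.05 was reached by 6 of them, and by 6.40% of all tested genes. A higher value in HL60 was seen for 10, with a median of 0.21 (0.21 to 0.28 under the 3 other scalings). mt-Cytb, a subunit of respiratory complex III, differed by 0.34 (adjusted p = 0.103), and passed under a higher filter, the 3 other scalings, sample weights, robust variance estimation, a block on assumed pairs and without library 523 or 544. mt-Nd4, a subunit of complex I, also differed by 0.34 (adjusted p = 0.133), and passed with quantile normalization, rescaling to the library total, robust variance estimation and without library 544. The list mean was 11.77 to 12.22 in HL60, 11.63 to 12.06 in ML1 and 11.03 to 11.27 in ctrl, so both lines lay above ctrl and overlapped.

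Smooth muscle and pericyte genes had a median of 0.21 over 14 genes, none of which passed, with 3 at an unadjusted p under 0.05. Such a p was reached by 6.40% of all tested genes. Tagln, an actin-binding protein of smooth muscle, differed by 0.72 (adjusted p = 0.570, limma). Among matrix proteases and their inhibitors, 0 of 13 passed and 3 had an unadjusted p under 0.05 in limma. Timp3, an inhibitor of matrix proteases, differed by 0.40 in early (adjusted p = 0.330) and by −0.93 in late (adjusted p = 0.00481), and its early minus late value was 1.33 (adjusted p = 0.00110).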
